A study of Mus musculus with 2 samples.

Results

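Classical monocytes are the short-lived blood monocytes that carry much surface Ly6C. In these lungs they were taken as the cells in which Ly6c2, F13a1, Vcan and Ccr2 together made up at least 0.12% of the cell's transcript tags (UMIs) and at least 6 UMIs. The rule also asked for at least 1 UMI of Csf1r or Ms4a6c and at most 3 UMIs of the alveolar macrophage genes Plet1, Krt79 and Lpl. At most 3 UMIs of C1qa, C1qb and C1qc were allowed, and 0 UMIs of Cd3e, Cd79a, Cdh5, Ncr1 and Flt3. It gave 1279 of 18376 cells, after barcodes under 200 genes or 2000 UMIs, or above 20% mitochondrial UMIs, had been removed from the 21077 in the files. There were 746 of 10774 such cells in the LPS library and 533 of 7602 in the LPS_MCZ library.

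Both libraries came from the lower lobe of the left lung of male ICR mice, an outbred stock, at 6 to 8 weeks of age. All mice received lipopolysaccharide (LPS), the bacterial cell wall component that triggers acute lung inflammation. Those of the LPS_MCZ library were also injected intraperitoneally with miconazole (MCZ), an antifungal drug of the azole class, at 0.2 mg/kg by the sample label and at 1 mg/kg by the protocol text. All mice of a group were pooled before capture. With 1 library per group the groups could not be tested against each other, and treatment cannot be told apart from library or from the mice that entered each pool. How many mice entered a pool, how much LPS they received and when they were sampled is not given in the sources used here, and no untreated lung was among the samples.

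Classical monocytes leave the bone marrow through the receptor Ccr2, follow Ccl2 and Ccl7 into inflamed tissue, and there mature into macrophages or dendritic-type cells, or die. When Tlr4 and its co-receptor Cd14 sense LPS, these cells release chemokines that draw neutrophils, and cytokines such as interleukin 1 beta, interleukin 6 and tumour necrosis factor. Azole antifungals inhibit the fungal form of lanosterol demethylase, whose mammalian gene is Cyp51, an enzyme of cholesterol synthesis.

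The label was checked first against genes that the rule had not used. All 22 monocyte genes of a list outside the rule were measured in the members, among them Lyz2 (lysozyme) at 2767 counts per 1000000 UMIs (CPM) in the LPS library and 2526 CPM in the LPS_MCZ library. Plac8 stood at 2592 and 2419 CPM, Cd14 at 2903 and 2652 CPM, and Fn1 (fibronectin) at 662 and 581 CPM. Against neutrophils of the same libraries, Ccl2 was at 1202 and 1025 CPM where neutrophils had 9.47 and 8.71 CPM, and the monocyte membrane protein gene Ms4a4c at 247 and 361 CPM where they had 2.23 and 2.71 CPM. Both were picked for a ratio over neutrophils among the highest of all genes ranked. Since the cells were chosen by their own counts, these levels are a description and not a test of the label.

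Some of the members went against the label. S100a8 and S100a9, which encode the neutrophil alarmin calprotectin, made up at least 2% of the UMIs of 145 members (19.4%) in the LPS library and 101 (18.9%) in the LPS_MCZ library. Most of these, 96 and 75 cells (12.9% and 14.1% of members), detected fewer than 2500 genes, with a median of 1390 and 1595 genes. Their Ly6c2 level was 1939 and 2008 CPM. Yet F13a1 stood at 3.00 and 32.7 CPM, Vcan at 12.0 and 29.1 CPM, Ccr2 at 3.00 and 1.82 CPM and Fn1 at 7.49 and 10.9 CPM, while the neutrophil receptor Cxcr2 was at 1286 and 1071 CPM. These cells met the rule almost wholly through Ly6c2, and they held neutrophil genes with next to no F13a1, Vcan, Ccr2 or Fn1. Plac8 did not set them apart, at 2844 CPM in the LPS library against 2567 CPM in the LPS members under 2%. The other 49 and 26 members above 2% had a median of 4399 and 4416 genes, with F13a1 at 922 and 791 CPM beside Cxcr2 at 325 and 324 CPM, so they held monocyte and neutrophil genes in the same barcode. Whether those barcodes held more than 1 cell was not tested. Results below are given for all members, and without all members at 2% or more where that matters.

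**Figure D1:**
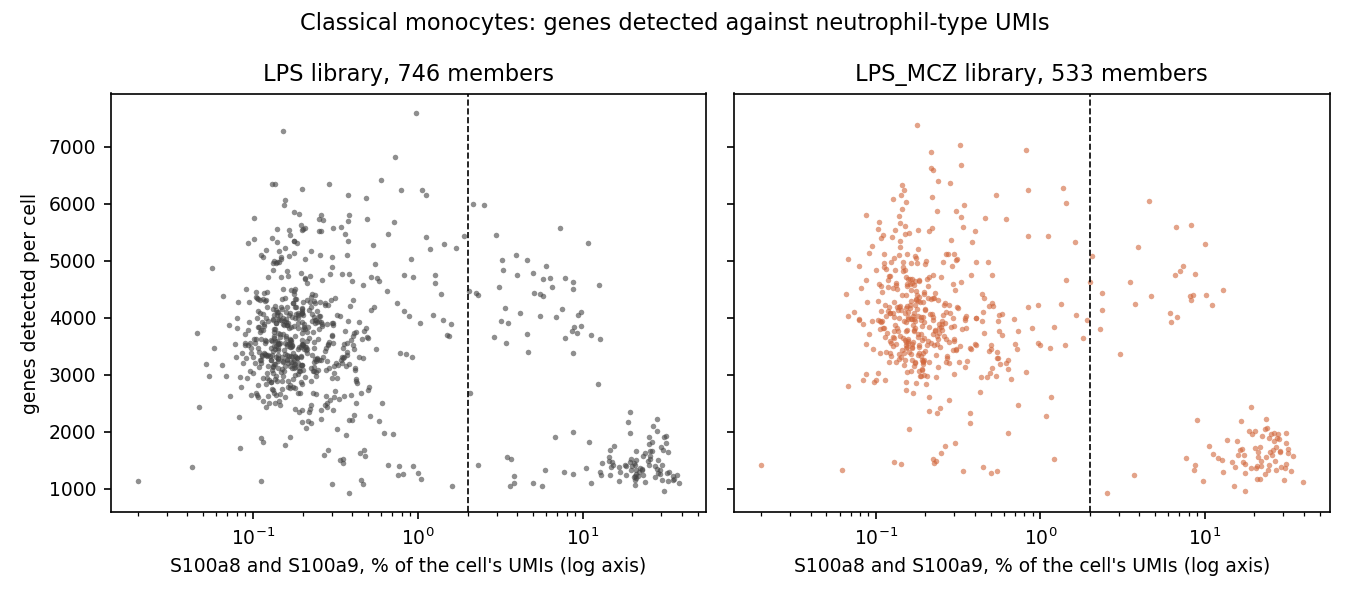
Genes detected per cell (vertical axis) against the percent of the cell's UMIs from S100a8 and S100a9 (horizontal log axis) for each member, LPS library on the left and LPS_MCZ library on the right. The dashed line marks 2%; right of it lie 145 and 101 members, most of them in a dense group with fewer than 2500 genes.

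The remaining 601 and 432 members had more F13a1 and Fn1 and less Retnlg than those above 2%. Csf1r, the receptor for the monocyte growth factor, was at 309 and 284 CPM in them. F13a1 (coagulation factor XIII A) was at 1271 and 1183 CPM and Fn1 at 729 and 642 CPM. Retnlg, a neutrophil gene, was at 60.4 and 55.9 CPM, against 4844 and 5256 CPM in the members above 2%. Csf1r and F13a1 are genes of the rule, and the split took out the members high in neutrophil genes, so these levels are a description. Just inside the 0.12% limit, from 0.12 to 0.15%, lay 70 and 50 cells with a median of 0.871% and 0.316% of UMIs from S100a8 and S100a9. Just outside it, from 0.09 to 0.12%, lay 66 and 64 cells with 3.75% and 12.1%.

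Markers of other myeloid cells were present, and those of neutrophils were high. The nonclassical monocyte list, whose genes classical monocytes express in part, summed to 1327 and 1418 CPM, the plasmacytoid dendritic cell list to 403.5 and 468 CPM, the C1q macrophage list to 437 and 517 CPM and the neutrophil list to 23329 and 22433 CPM, more than the 17121 and 17894 CPM of the 22 monocyte genes outside the rule. Other lists were low. Alveolar macrophage markers summed to 138 and 145 CPM, conventional dendritic cell markers to 21.1 and 33.6 CPM, endothelial markers to 52.9 and 54.0 CPM, natural killer cell markers to 12.4 and 5.39 CPM and platelet markers to 8.20 and 18.5 CPM. T cell markers summed to 35.3 and 37.1 CPM, B cell markers to 6.96 and 6.16 CPM, fibroblast markers to 2.12 and 3.74 CPM and mast cell markers to 0.881 and 0.330 CPM. The haemoglobin genes and the airway gene Scgb1a1 were the exceptions. Erythroid markers summed to 1152 and 538 CPM and Scgb1a1 stood at 38.6 and 122 CPM. Scgb1a1 was as high in lymphoid, erythroid or endothelial cells of the same libraries, where its lowest level was 49.5 and 144 CPM, so its level in the members did not exceed that of cells that should lack it. For every gene, the lowest level among T, B, erythroid and endothelial cells was taken as the background, and a gene whose level in the members was under 3 times its background in either library is called open to free RNA below.

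The members were among the deeper cells of both libraries. They held a median of 13664 and 15406 UMIs and 3511 and 3823 genes, and their summed counts were 11345699 and 9094837 UMIs of the 90597705 and 68467793 in the libraries. Gm42418, a gene that overlaps ribosomal RNA, was higher in the LPS_MCZ library in the members (4371 and 8449 CPM) as in neutrophils, alveolar macrophages and T cells. There were 243 barcode sequences found in both libraries, held by 3 members of the LPS library and 24 of the LPS_MCZ library.

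Classical monocytes made up similar shares of both libraries, with overlapping counting intervals. They were 6.92% of kept cells in the LPS library (exact Clopper-Pearson 95% interval 6.45 to 7.42) and 7.01% in the LPS_MCZ library (6.45 to 7.61). Among the cells that were not neutrophils by the fixed definition, they were 10.9% (10.2 to 11.7) and 11.5% (10.6 to 12.4). Without the members at 2% or more S100a8 and S100a9 the shares were 5.58% and 5.68%, and without barcodes found in both libraries 6.90% and 6.70%. These intervals, and all brackets below, cover counting error only and not the variation between mice.

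Expression was compared by summing the UMIs of all members of a library, scaling to CPM, and taking the log2 ratio of LPS_MCZ over LPS with 1 CPM added to both levels. Levels are given in the order LPS, then LPS_MCZ, with the log2 ratio after them in parentheses and, in brackets, the 95% interval of the ratio of counts without that addition. Of 10235 genes with at least 50 UMIs, leaving out the genes of the rule, 512 (5%) were higher in the LPS_MCZ library by at least 0.5 log2 and 465 (4.54%) were lower by as much. The median over all genes was 0.04 and the standard deviation 0.33. Over the 3197 of them not open to free RNA the spread was wider. Their median was 0.04 and their standard deviation 0.40, with 5% below -0.58 and 5% above 0.60. Without the members at 2% or more S100a8 and S100a9, 479 (4.81%) and 465 (4.67%) of 9964 genes passed, of which 406 and 383 were the same genes as before. With 1 library per group none of these counts carries a test. The counts of list genes below are to be read beside the shares over all genes, 5% higher and 4.54% lower. In a list of about 20 genes, a single gene past 0.5 is near those shares. For counts among genes not open to free RNA those shares are too low. Of such genes 5% lay below -0.58 and 5% above 0.60, so more of them passed 0.5.

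Genes of the rule are given as a description, since they chose the cells. Ly6c2, the Ly6C antigen, stood at 1660.5 CPM in the LPS library and 1186 CPM in the LPS_MCZ library. Its level was 1657 and 1115 CPM without the members above 2%. F13a1 was at 1160.2 and 1085 CPM, Vcan (the matrix proteoglycan versican) at 890.2 and 805 CPM, Ccr2 at 393 and 346 CPM, and the membrane protein gene Ms4a6c at 1041 and 1116 CPM. The median member gave 0.345% and 0.286% of its UMIs to the 4 genes of the threshold.

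**Figure D2:**
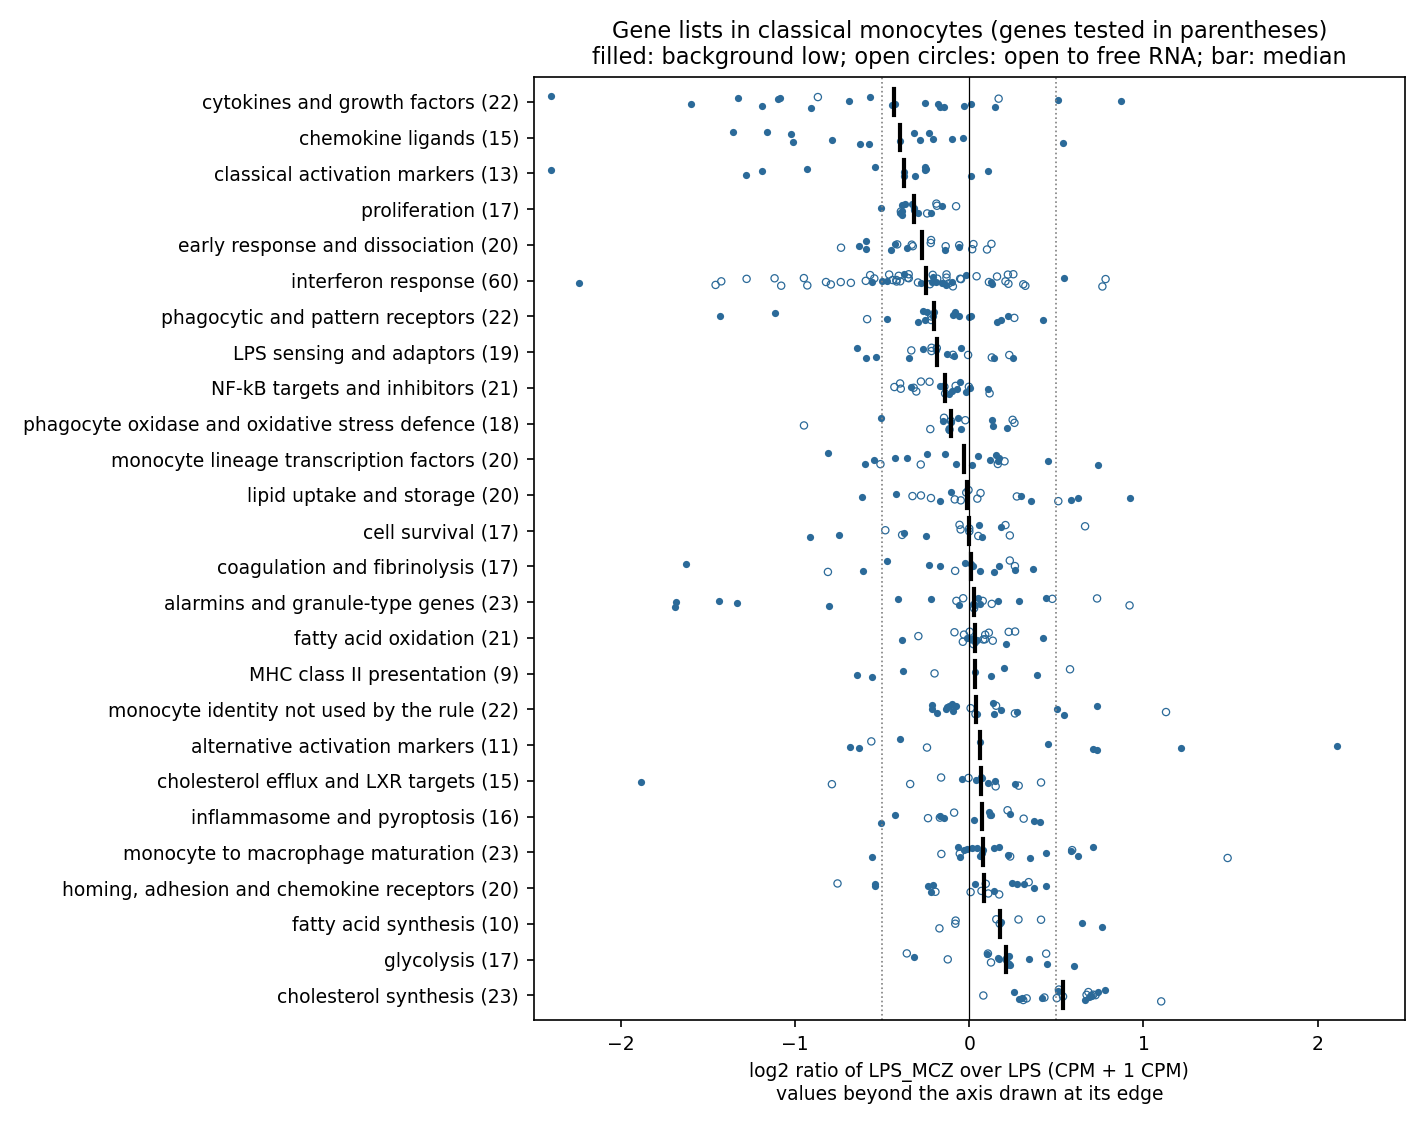
Log2 ratio of LPS_MCZ over LPS in classical monocytes (horizontal axis) for each tested gene of 26 lists (rows, with the number of tested genes), with the median of each list as a bar and dotted lines at 0.5 either way. Filled points have a low background and open circles are open to free RNA; Il12b, beyond the axis, is drawn at its left edge, and the medians run from -0.43 for cytokines to 0.54 for cholesterol synthesis.

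Chemokine ligands were lower in the LPS_MCZ library almost throughout. Of 19 listed ligands 15 were tested, 14 lay below 0, 7 were lower by at least 0.5 log2 (4.54% of all genes were) and 1 was higher. The list's median was -0.40 beside 0.04 over all genes, and none of the 15 was open to free RNA. Summed over the list, the level was 15241 CPM in the LPS library and 9767 CPM in the LPS_MCZ library. Without the members at 2% or more S100a8 and S100a9, the median was -0.35 with the counts still at 7 and 1. The lower level was not particular to the members. The list's median was -0.78 in alveolar macrophages, -0.40 in neutrophils and -0.31 in nonclassical monocytes. It was -1.94 in B cells and -0.79 in erythroid cells (9 genes tested in each), -0.20 in endothelial cells and 0.04 in T cells. The part of free RNA in the members' ratios was not tested.

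The inflammatory CC chemokines Ccl3, Ccl4 and Ccl5 differed in direction. Ccl4 stood at 2248 CPM in the LPS library and 879 CPM in the LPS_MCZ library, a log2 ratio of -1.35 [-1.39, -1.32]. Ccl3, its neighbour in function and in the genome, was at 728 and 324 CPM (-1.16 [-1.23, -1.10]). Ccl5 was the exception of the list, at 851 and 1236 CPM (0.54 [0.50, 0.58]), higher in the LPS_MCZ library. That sum came from the upper end of the cells: the median member was at 34.1 and 0 CPM and the 90th percentile at 2552 and 4263 CPM. A Ccl5 UMI was found in 26.5% (23.4 to 29.9) and 26.8% (23.1 to 30.8) of members after thinning each cell to 2000 UMIs, over a background of 7.59% and 3.57%, and in 51.7% and 47.5% before. The ratio lay inside 0.5 in 6 of 16 alternative analyses, at 0.41 after that thinning and 0.35 with the threshold genes at 0.2% or more. In alveolar macrophages of the same libraries Ccl5 had a log2 ratio of -1.62 and in neutrophils -1.34, so the members differed in sign from both; that difference was not tested.

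The summed levels of the monocyte-attracting ligands lay inside 0.5 log2. Ccl2, the main ligand of Ccr2, was at 1202 and 1025 CPM (-0.23 [-0.27, -0.19]), and Ccl7, which binds the same receptor, at 147 and 143 CPM (-0.04). Per cell, Ccl2 was lower in the LPS_MCZ library by more than its sum: the median member was at 334 and 165 CPM and the 90th percentile at 3054 and 2727 CPM. A Ccl2 UMI was found in 49.5% (45.8 to 53.1) and 42.0% (37.8 to 46.3) of members after thinning, and in 68.5% and 66.6% before. Among T, B, erythroid and endothelial cells, thinned alike, the share was at most 2.44% and 3.61%.

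CXC chemokines that bind Cxcr2 and recruit neutrophils were lower in the LPS_MCZ library. Cxcl2 was the most abundant chemokine, at 6917 and 4012 CPM (-0.79 [-0.80, -0.77]). Cxcl3 was at 415 and 204 CPM (-1.02 [-1.11, -0.95]) and Cxcl1 at 329 and 213 CPM (-0.62 [-0.71, -0.55]). The interferon-induced Cxcl10, which attracts T cells through Cxcr3, was at 837 and 415 CPM (-1.01 [-1.07, -0.96]). The members with many neutrophil UMIs had more Cxcl2 than the others, 12031 and 8648 CPM against 5927 and 3303 CPM. Their Ccl4 level was 2483 and 467 CPM against 2203 and 942 CPM. Without those members the ratios were -0.84 for Cxcl2, -1.22 for Ccl4, -1.25 for Ccl3 and -1.05 for Cxcl3. The ratio of Cxcl1 was -0.46 after thinning, inside 0.5.

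The promoters of the Cxcr2 ligands are shown because these neighbouring genes on chromosome 5 were lower together. Each sequence holds the 250 bases before the gene's start on the plus strand, from RefSeq (GRCm38.p6), with matches to GGAANNTCC or its reverse strand form GGANNTTCC, an NF-kB type motif, in capitals. The lines give Cxcl1 at chr5:90890995-90891244, Cxcl2 at chr5:90903649-90903898 and Cxcl3 at chr5:90785851-90786100.
Cxcl1: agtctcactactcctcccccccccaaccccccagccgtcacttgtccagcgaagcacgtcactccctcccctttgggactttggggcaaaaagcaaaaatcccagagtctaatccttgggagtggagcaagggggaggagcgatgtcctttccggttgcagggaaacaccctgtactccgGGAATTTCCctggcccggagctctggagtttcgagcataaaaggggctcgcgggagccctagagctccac
Cxcl2: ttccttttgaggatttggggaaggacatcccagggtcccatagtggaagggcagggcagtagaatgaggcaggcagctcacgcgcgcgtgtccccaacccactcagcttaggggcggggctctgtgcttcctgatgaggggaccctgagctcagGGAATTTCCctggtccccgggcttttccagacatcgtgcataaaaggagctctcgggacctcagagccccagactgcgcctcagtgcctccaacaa
Cxcl3: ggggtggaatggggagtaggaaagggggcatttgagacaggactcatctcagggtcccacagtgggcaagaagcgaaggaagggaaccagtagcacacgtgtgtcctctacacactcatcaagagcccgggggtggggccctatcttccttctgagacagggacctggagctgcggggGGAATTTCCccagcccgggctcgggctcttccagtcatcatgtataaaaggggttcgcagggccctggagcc
In all 3 the matches on both strands overlapped in a single stretch. The motif was in 5 of the 12 chemokine genes and 5 of the 17 cytokine genes of the lists that had an entry, and in 4.12% of all 27025 promoters (1113). A match is a description of letters, not evidence of binding.

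In single cells Ccl4 was lower in the LPS_MCZ library at the low, middle and high end of the distribution. Its level per cell was 31.5 CPM at the 10th percentile, 993 CPM at the median and 7067 CPM at the 90th percentile in the LPS library, against 0, 169 and 3034 CPM in the LPS_MCZ library. After each cell was thinned to 2000 UMIs, 66.1% (62.6 to 69.5) of members in the LPS library and 40.9% (36.7 to 45.2) in the LPS_MCZ library had a Ccl4 UMI, and 90.1% and 75.8% before thinning. The lowest share among T, B, erythroid and endothelial cells, thinned alike, was 19.6% and 9.52%, at median depths of 6962, 5867, 7743 and 6278 UMIs in the LPS library and 7867, 7060, 6810 and 5725 UMIs in the LPS_MCZ library. For Cxcl10 the thinned shares were 40.8% and 27.2%, with a background of 8.02% and 3.57%. Both genes were thus above that lowest share in both libraries, and were found in fewer members of the LPS_MCZ library. Cxcl10 was found in 43.0% and 31.3% of endothelial cells, thinned alike, so its share in the members did not exceed theirs.

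**Figure D3:**
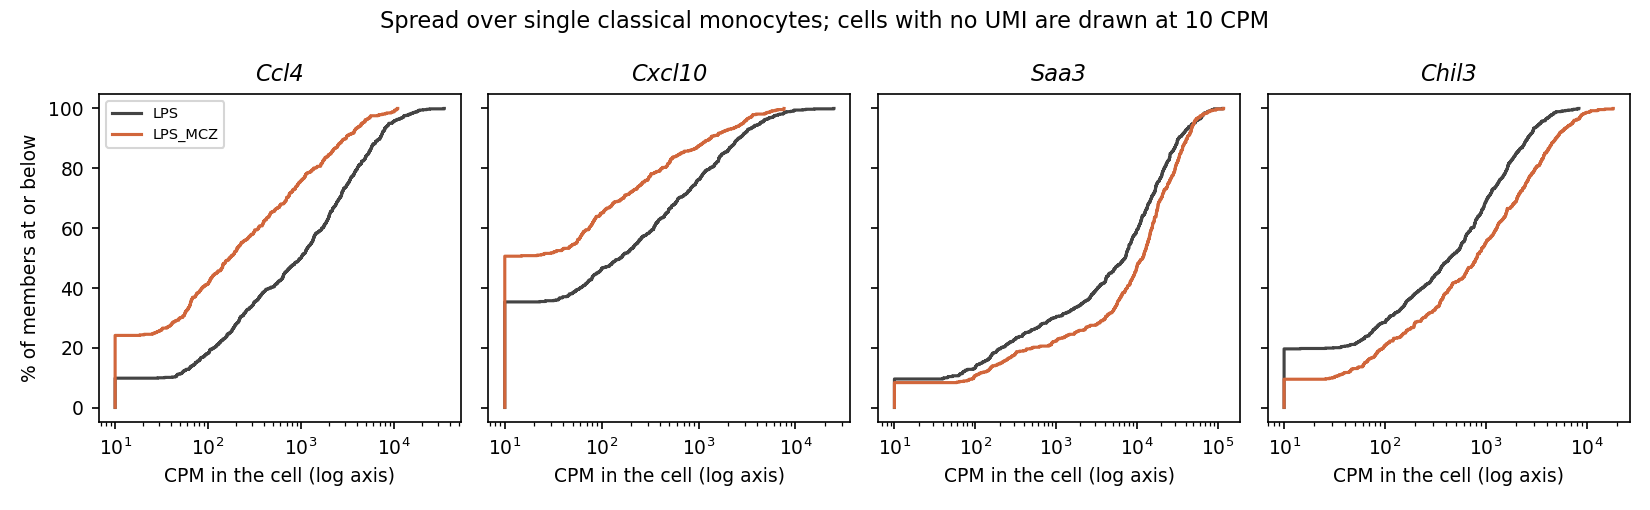
Cumulative percent of members (vertical axis) at or below a given level in CPM per cell (horizontal log axis) for Ccl4, Cxcl10, Saa3 and Chil3, LPS library in grey and LPS_MCZ library in orange, with cells without a UMI drawn at 10 CPM. The curve of the LPS_MCZ library lies to the left for Ccl4 (median 169 against 993 CPM) and Cxcl10, and to the right over most of its course for Saa3 (median 11766 against 7122 CPM) and Chil3 (804 against 435 CPM).

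Cytokines and growth factors had 22 of 25 genes tested, of which 10 were lower by 0.5 log2, 2 were higher and 17 lay below 0, with a median of -0.43. Il6, which drives the acute phase response, was at 292 CPM in the LPS library and 127 CPM in the LPS_MCZ library (-1.19 [-1.30, -1.10]), and its thinned share of members with a UMI was 24.8% (21.7 to 28.1) and 15.8% (12.8 to 19.1), over a background of 0.607% and 0.939%. Among other ligands that signal through the receptor gp130, Lif was at 32.3 and 10.0 CPM (-1.60 [-2.04, -1.35]) and Osm (oncostatin M) at 422 and 224 CPM (-0.91 [-0.99, -0.84]). Il6, Lif and Osm were lower in the LPS_MCZ library by more than the counting interval. Il27, whose receptor also uses gp130, went the other way at 14.9 and 21.7 CPM (0.51), but at 0.40 without the members at 2% or more S100a8 and S100a9.

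Of the interleukin 1 family, Il1b was by far the highest at 6607 and 4920.0 CPM, with a ratio of -0.43 [-0.44, -0.41]. Il1a was at 374 and 232 CPM (-0.69) and the receptor antagonist Il1rn at 809 and 544 CPM (-0.57). Tnf, the tumour necrosis factor gene, was at 293 and 246 CPM (-0.25 [-0.33, -0.18]). Both agonists and the antagonist of the interleukin 1 receptor were lower in the LPS_MCZ library, and the ratio of Il1b and Tnf was inside 0.5. As a mean of per-cell CPM the ratios of Il1a (-0.46) and Il1rn (-0.47) lay inside 0.5 too.

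The interleukin 12 family was scarce. Il12a was at 23.3 and 8.69 CPM (-1.33) and Il23a at 25.8 and 11.7 CPM (-1.08). Il12b, the subunit shared by interleukins 12 and 23, had 106 UMIs in 8 members of the LPS library, 68.9% of them in a single cell, and 0 in the LPS_MCZ library. Set against the 3 counts over all members that a count of 0 allows, it was at least 28.3-fold lower there, a value that rests on that cell. As the lowest gene of its lists, it leaves their medians the same at that bound. Il10, the anti-inflammatory cytokine, was higher in the LPS_MCZ library, at 17.0 and 31.9 CPM (0.87 [0.64, 1.18]).

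**Figure D4:**
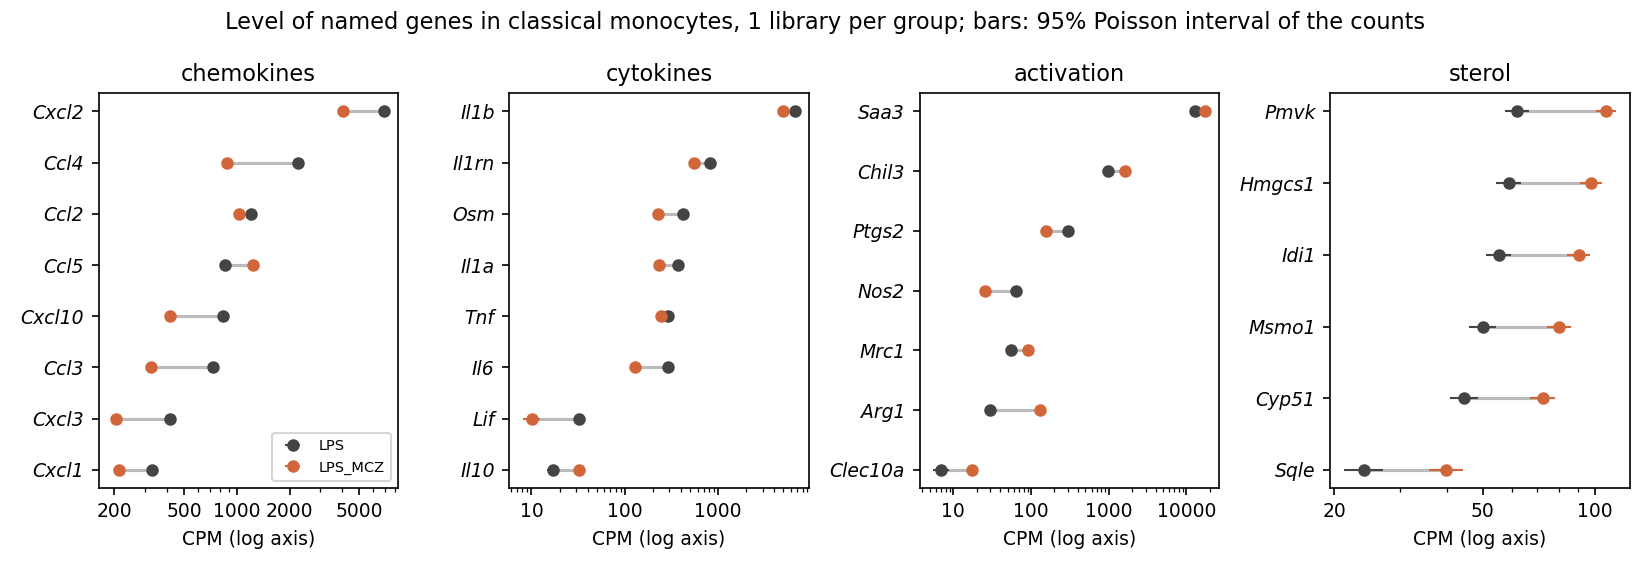
Level in CPM (horizontal log axes, which differ between panels) of chemokines, cytokines, activation genes and cholesterol synthesis genes summed over classical monocytes, LPS library in grey and LPS_MCZ library in orange, with bars for the 95% Poisson interval of the counts. Most chemokines and cytokines are lower and the cholesterol synthesis genes higher in the LPS_MCZ library; Ccl5, Il10, Saa3, Chil3, Mrc1, Arg1 and Clec10a are higher.

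Markers of classical activation, a list that shares genes with the cytokines, were lower likewise. Of 13 tested, 5 were lower by 0.5 log2, none was higher and 11 lay below 0 (median -0.37). Nos2, the inducible nitric oxide synthase, was at 64.0 and 25.7 CPM (-1.28 [-1.53, -1.10]) and Ptgs2, the inducible cyclooxygenase, at 296 and 155 CPM (-0.93 [-1.03, -0.84]). Acod1, which makes itaconate, was nearly equal at 1036 and 1045 CPM (0.01).

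Alternative activation markers were split, with 4 of 11 higher, 3 lower and a median of 0.06. Arg1 (arginase 1) had the highest ratio of the list, at 29.6 CPM in the LPS library and 131 CPM in the LPS_MCZ library (2.11 [1.97, 2.33]). It came from few cells: 72 and 93 members had a UMI, and the cell with the most held 8.63% and 6.44% of them. Chil3, a chitinase-like lectin, was at 976 and 1622 CPM (0.73 [0.70, 0.77]), the mannose receptor gene Mrc1 at 55.5 and 91.4 CPM (0.71) and the lectin gene Clec10a at 6.96 and 17.5 CPM (1.21). Retnla, another gene of the list, was lower at 14.4 and 8.58 CPM (-0.68). The list thus held genes that differed in both directions. Without the members at 2% or more S100a8 and S100a9 the ratio was 1.99 for Arg1 and 0.62 for Chil3, and the median of the list was -0.02. After thinning, Mrc1 was at 0.26, and without the tenth of members with the most UMIs Retnla turned to 0.52.

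Members with Arg1 differed from those without in more than Arg1. Those with at least 3 Arg1 UMIs were 30 (4.02%) and 50 (9.38%). Their Ccl2 level was 1955 and 2019 CPM against 1092 and 915 CPM in members with 0 Arg1 UMIs, and Saa3 was at 19043 and 25410.0 CPM against 11877 and 15871 CPM. H2-Ab1, an MHC class II chain, was at 47.9 (from 26 UMIs) and 8.46 CPM against 117 and 88.9 CPM. Other genes of the same kinds did not follow in the LPS library. There Cd74, also of class II presentation, was at 357 against 345 CPM, and Chil3 was lower at 591 against 995 CPM. These cells were chosen by their own counts and were deeper (median 15323 and 19441 UMIs against 13395 and 14811), so the values are a description.

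Acute phase and secreted genes included the highest transcripts. Saa3 (serum amyloid A3) was at 12913 and 17536 CPM (0.44 [0.43, 0.45]), where the ferritin gene Fth1 was at 16536 and 12582 CPM. Hp (haptoglobin) was at 1082 and 1531 CPM (0.50 [0.47, 0.54]) and Lcn2 (lipocalin 2) at 3066 and 4267 CPM (0.48). Hp lay at the limit of 0.5 and was at 0.39 after thinning. In neutrophils of the same libraries Saa3 was at 1518 and 596 CPM, a ratio of -1.35, and in nonclassical monocytes at 4364 and 7597 CPM, a ratio of 0.80.

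Receptors and adaptors for LPS were measured in 19 of 19 genes, with 3 lower, none higher and a median of -0.19. Tlr4, the LPS receptor, was at 104 and 81.8 CPM (-0.35 [-0.49, -0.22]) and its co-receptor Cd14 at -0.13, both inside 0.5. The 3 lower genes were the lipoprotein receptors Tlr1 (-0.64) and Tlr6 (-0.53) and the adaptor Ticam1 (-0.59). Each came inside 0.5 under an alternative, Tlr1 at -0.21 after thinning, Tlr6 at -0.41 with a pseudocount of 5 CPM and Ticam1 at -0.34 with the background subtracted. NF-kB targets and inhibitors had 0 of 21 genes past 0.5 either way, with 18 below 0 and a median of -0.14. Nfkbia, the inhibitor induced by NF-kB itself, was nearly equal at 3042 and 3049 CPM (0.00).

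Interferon response genes were lower on the whole, with 17 of 60 tested genes lower, 3 higher and a median of -0.25, but 44 of the 60 were open to free RNA. Of the 16 that were not, 3 were lower and 1 was higher, with a median of -0.20. Ifit1, an antiviral RNA-binding protein, was at 142 and 51.2 CPM (-1.46), with a background of 143 and 86.3 CPM, at or above the members' own level. Rsad2 (viperin) was at 275 and 126 CPM over a background of 142 and 63.6 CPM, and Isg15 at 838 and 564 CPM over 563 and 341 CPM. Free RNA of these genes was lower in the LPS_MCZ library too, and its part in the members' ratio was not tested. In the LPS library Isg15 was at 2187 CPM in members at 2% or more S100a8 and S100a9 and 577 CPM in the others. The latter level was near its background of 563 CPM. Over the alternatives, which included leaving out the members at 2% or more, the list's median ran from -0.30 to 0. Once the background was subtracted, the list's median was 0. Among the genes not open to it, Ifi213 was the lowest at 5.29 CPM, from 60 UMIs, in the LPS library and 3 UMIs in all members of the LPS_MCZ library (-2.24 [-6.32, -2.39]), and the receptor-proximal factor Irf7 was nearly equal at 485 and 528 CPM (0.12).

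Every tested cholesterol synthesis gene was higher in the LPS_MCZ library. Of 25 genes 23 were tested, all 23 lay above 0, 15 were higher by 0.5 log2 (5% of all genes were) and the median was 0.54. Open to free RNA were 13 of them, which lymphoid, erythroid and endothelial cells also held, and among the 10 that were not, 6 were higher and the median was 0.59. Without the members at 2% or more S100a8 and S100a9 the median was 0.57, with 12 genes higher.

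Ordered along the pathway, the early enzyme Hmgcs1, which makes the precursor of mevalonate, was at 58.6 and 97.5 CPM (0.72 [0.59, 0.88]). Pmvk and Idi1, which lead to the isoprenoid units, were at 61.9 and 107 CPM (0.78 [0.65, 0.93]) and 55.1 and 90.2 CPM (0.70 [0.56, 0.86]). These enzymes of the first steps and the middle of the pathway were higher by similar amounts, while the background of Hmgcs1 was 29.4 and 28.4 CPM. Sqle and Lss, which form and close the sterol ring precursor, were at 24.0 and 39.9 CPM (0.71) and 2.03 and 5.50 CPM (1.10). Cyp51 was at 44.6 and 72.2 CPM (0.68 [0.53, 0.87]). The later enzyme Msmo1 was higher as well, at 49.9 and 80.2 CPM (0.67). With the background subtracted the ratio of Idi1 was 0.37.

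The regulators Srebf2 and Insig1 were higher by less. Srebf2, the transcription factor of the pathway, had a ratio of 0.33 and Insig1, which retains that factor's precursor in the endoplasmic reticulum, 0.26. Single cells rarely gave more than a few UMIs: after thinning, Idi1 was found in 8.85% (6.91 to 11.1) of members in the LPS library and 15.6% (12.6 to 18.9) in the LPS_MCZ library, over a background of 0.813% and 1.94%. For Cyp51 these shares were 6.17% (4.55 to 8.14) and 9.76% (7.37 to 12.6). Among T, B, erythroid and endothelial cells the highest Cyp51 share was 6.75% and 5.16%, so the share in the LPS library did not exceed it. For Idi1 the highest share among those cells was 6.54% and 3.61%.

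The promoters of 4 of these genes are shown because the genes of the list were higher together. The sequences are the 250 bases before the gene's start, 5′ to 3′ on the gene's strand, from RefSeq (GRCm38.p6), with every match to CCAAT or its reverse strand form ATTGG, the motif bound by NF-Y, in capitals. They lie at chr13:119690101-119690350 on the plus strand for Hmgcs1, chr5:4104698-4104947 on the minus strand for Cyp51, chr13:8885356-8885605 on the plus strand for Idi1 and chr10:76531355-76531604 on the plus strand for Lss.
Hmgcs1: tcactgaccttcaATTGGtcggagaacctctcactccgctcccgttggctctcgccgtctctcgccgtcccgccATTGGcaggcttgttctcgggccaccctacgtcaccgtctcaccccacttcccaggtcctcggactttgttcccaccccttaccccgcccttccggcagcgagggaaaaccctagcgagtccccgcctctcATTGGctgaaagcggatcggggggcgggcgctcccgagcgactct
Idi1: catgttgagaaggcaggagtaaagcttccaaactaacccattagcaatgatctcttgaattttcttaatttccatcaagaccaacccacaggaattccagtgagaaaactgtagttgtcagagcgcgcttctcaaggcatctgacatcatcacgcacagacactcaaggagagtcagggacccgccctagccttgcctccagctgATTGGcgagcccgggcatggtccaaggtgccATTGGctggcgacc
Lss: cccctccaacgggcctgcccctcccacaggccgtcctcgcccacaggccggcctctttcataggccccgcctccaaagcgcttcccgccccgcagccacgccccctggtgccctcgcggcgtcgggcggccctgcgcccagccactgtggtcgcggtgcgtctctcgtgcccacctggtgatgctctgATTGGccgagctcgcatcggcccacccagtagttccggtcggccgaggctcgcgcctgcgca
Cyp51: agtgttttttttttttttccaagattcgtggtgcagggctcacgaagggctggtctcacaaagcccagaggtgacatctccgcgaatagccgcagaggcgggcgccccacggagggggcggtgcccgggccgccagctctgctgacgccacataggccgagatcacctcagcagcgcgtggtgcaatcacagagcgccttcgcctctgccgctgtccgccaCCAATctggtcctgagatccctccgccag
Hmgcs1 had 3 matches, Idi1 had 2, and Lss and Cyp51 had 1 each. The motif was in 16 of the 17 cholesterol synthesis genes that had an entry (94.1%), and in 37.5% of all 27025 promoters (10133). As a common and short motif it shows only which letters these windows share.

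The pathway was not higher in every cell type. Its median log2 ratio was 0.54 in classical monocytes (23 genes tested), 0.78 in neutrophils (18 genes), -0.23 in nonclassical monocytes (15 genes), -0.13 in alveolar macrophages (23 genes) and 0.01 in T cells (14 genes). Cyp51 was at 59.9 and 42.3 CPM in nonclassical monocytes and at 38.5 and 35.0 CPM in alveolar macrophages, both lower in the LPS_MCZ library, and at 2.70 and 12.5 CPM in neutrophils. Hmgcs1 was at 73.4 and 52.4 CPM in nonclassical monocytes, 69.5 and 62.0 CPM in alveolar macrophages and 24.5 and 58.5 CPM in neutrophils. No gene of the list passed 0.5 either way in nonclassical monocytes (209 and 150 cells) or alveolar macrophages. In neutrophils 16 were higher by 0.5 log2 and 0 lower, and in T cells 1 was higher and 0 lower. The difference between cell types was not tested. In classical monocytes without the members high in neutrophil genes, the median was 0.57.

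**Figure D5:**
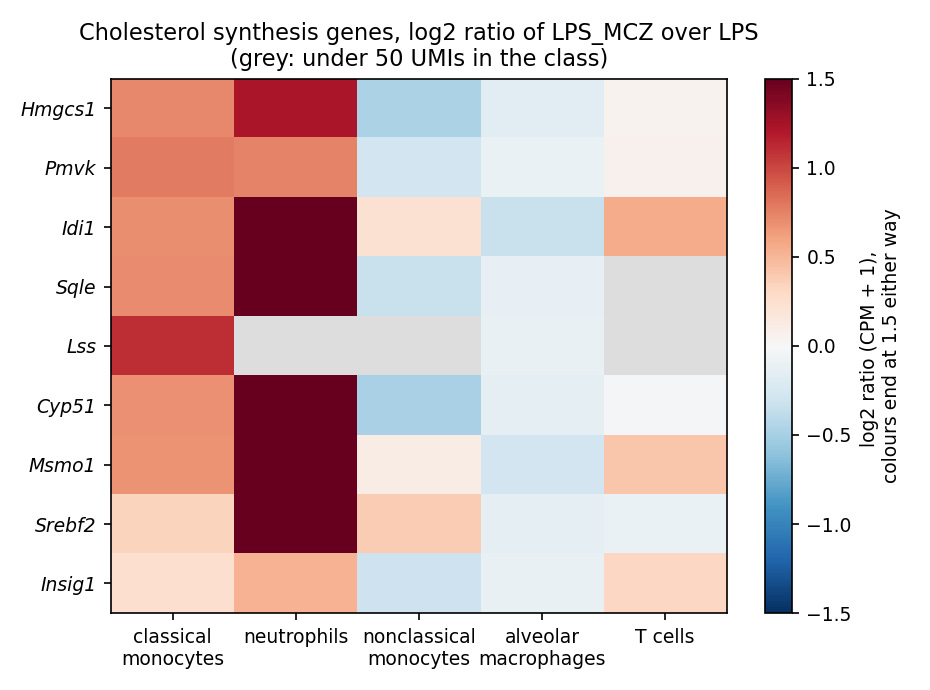
Log2 ratio of LPS_MCZ over LPS (colour, which ends at 1.5 either way) for 9 of the 23 tested cholesterol synthesis genes, those named in the text (rows), in classical monocytes, neutrophils, nonclassical monocytes, alveolar macrophages and T cells (columns), grey where the class had under 50 UMIs. All 9 are above 0 in classical monocytes, most are in neutrophils, and most are below 0 in alveolar macrophages.

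Other lipid genes gave a mixed picture. Cholesterol efflux and LXR target genes had 0 of 15 higher and 2 lower (median 0.07): Abca1, the main cholesterol exporter, at 42.1 and 24.0 CPM (-0.79, and -0.45 after thinning; open to free RNA), and Ch25h, which makes 25-hydroxycholesterol, at 8.37 and 1.54 CPM (-1.88). In fatty acid synthesis 2 of 10 were higher, the desaturase Scd2 at 21.0 and 36.3 CPM (0.76) and the synthase Fasn at 11.1 and 17.9 CPM (0.64). None of 21 fatty acid oxidation genes passed 0.5 either way (median 0.03).

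Lipid uptake and storage had 4 of 20 genes higher and 1 lower (median -0.01). Fabp5, an intracellular fatty acid carrier, was at 971 and 1494 CPM (0.62 [0.59, 0.66]), its relative Fabp4 at 32.5 and 62.5 CPM (0.92) and the lipid droplet coat gene Plin2 at 415 and 622 CPM (0.58). The lower gene was Pparg, a nuclear receptor for fatty acids (-0.61). These calls ended for Fabp4 with the threshold genes at 0.2% or more (0.40), for Plin2 after thinning (0.43) and for Pparg without the tenth of members with the most UMIs (-0.22). Glycolysis genes were mostly above 0 (14 of 17, median 0.21). Only the enolase gene Eno1 was higher by 0.5 log2 (5% of all genes were), at 361 and 547 CPM (0.60).

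Genes of maturation towards macrophages had 5 of 23 higher and 1 lower (5% and 4.54% of all genes were), with a median of 0.08. Of the 5 higher genes 3 were not open to free RNA. The highest was Pf4 (1.48), which is also on the platelet list and was open to free RNA. Beside Mrc1 and Fabp5, Trem2, a lipid-sensing receptor of tissue macrophages, was at 9.34 and 14.5 CPM (0.58), and Spp1 (osteopontin) at 114 and 145 CPM (0.35). Cd163, the haemoglobin scavenger receptor, was the lower gene (-0.56), but turned to 0.47 after thinning, and Trem2 was at 0.44 with a pseudocount of 5 CPM. Within single members, Fabp5 and the maturation list had a Spearman correlation of 0.58 over the 746 cells of the LPS library and 0.59 over the 533 of the LPS_MCZ library; Fabp5 is in the list, and the points share depth and library, so this is a description.

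Transcription factors of the monocyte lineage had 1 of 20 higher and 4 lower (median -0.03), where 5% and 4.54% of all genes were. Spi1 (PU.1), which sets the myeloid programme, was at 701 and 779 CPM (0.15) and Zeb2 at 2071 and 2095 CPM (0.02). Of the C/EBP factors, Cebpa was higher at 24.3 and 41.2 CPM (0.74) and Cebpd lower at 65.3 and 36.7 CPM (-0.81). Runx1, a blood cell factor, was at 407 and 268 CPM (-0.60), and Bach1, a haem-sensing repressor, at 252 and 172 CPM (-0.55). After thinning Runx1 was at -0.16.

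Homing and adhesion genes had 0 of 20 higher and 3 lower (median 0.08). Among the lower genes, the formyl peptide receptor Fpr2 was at 256 and 175 CPM (-0.54, and -0.46 as a mean of per-cell CPM). The integrin chains Itgam and Itgb2, which pair to form Mac-1, were at 901 and 1089 CPM (0.27) and 415 and 538 CPM (0.37), both inside 0.5. Pattern receptors had 3 of 22 lower and none higher (median -0.20), with the fungal-sensing lectin Clec4n (Dectin-2) at 76.6 and 27.8 CPM (-1.43 [-1.67, -1.26]). Alveolar macrophages had Clec4n at 218 and 302 CPM, a ratio of 0.47.

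Proteases of immature myeloid cells were lower in the LPS_MCZ library but came from few members. Elane (neutrophil elastase) had 194 UMIs in 41 members and 42 UMIs in 20 members (-1.69 [-2.41, -1.40]), and Prtn3 (proteinase 3) stood at 51.5 and 29.0 CPM (-0.81). At least 3 UMIs of Elane, Mpo and Prtn3 together were found in 50 (6.70%) and 22 (4.13%) members, and without these members Prtn3 had a ratio of 0.14. Camp, the cathelicidin gene, was at 116 and 45.6 CPM (-1.33), but 48.0% of its UMIs in the LPS library came from a single cell, and without the members at 2% or more S100a8 and S100a9 the ratio was -0.41.

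Among the other lists, MHC class II presentation had 1 of 9 higher and 2 lower (median 0.03), the lower genes being H2-Aa (-0.64) and H2-Ab1 (-0.56). H2-Aa was at -0.47 after thinning, and H2-Ab1 at -0.47 without barcodes found in both libraries. In coagulation and fibrinolysis 3 of 17 were lower, with Serpinb2, the plasminogen activator inhibitor 2, at 56.0 and 17.5 CPM (-1.62 [-1.94, -1.43]). The inflammasome list had 1 of 16 lower (4.54% of all genes were) and none higher. The lower gene was Nlrp3 at 584 and 410.2 CPM (-0.51, and -0.43 after thinning). Oxidative stress defence had 2 of 18 lower and none higher, with the cystine transporter Slc7a11 at 336 and 173 CPM (-0.95), and survival genes had 2 of 17 lower, Bcl2a1a (-0.91) and Bcl2a1d (-0.75), near-identical copies whose reads may be split between them, and 1 higher.

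Immediate early and stress genes, a class that enzymatic dissociation of tissue can induce as well, formed the early response list, with 4 of 20 lower, none higher and a median of -0.27. Dusp1, a phosphatase of this class, was at 829 and 549.9 CPM (-0.59), Ier3 at 829 and 549 CPM (-0.59) and Fos had a ratio of -0.06. After thinning Dusp1 was at -0.46 and Ier3 at -0.44. These genes were lower in the same library as the cytokines, and their part in the other results was not tested.

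Members with UMIs of cycling genes were found in both libraries. At least 2 UMIs of Mki67 and Top2a were found in 147 members (19.7%, 16.9 to 22.7) in the LPS library and 100 (18.8%, 15.5 to 22.3) in the LPS_MCZ library, whose members were deeper. Thinned to equal depth, Top2a was found in 6.43% (4.78 to 8.44) and 3.94% (2.46 to 5.96) of members and Mki67 in 10.6% and 9.57%, values whose difference was not tested. Among T, B, erythroid and endothelial cells the highest share was 4.05% and 10.7% for Top2a and 3.04% and 4.85% for Mki67. Mki67, the proliferation antigen, was at 95.5 and 85.4 CPM (-0.16). All 17 tested proliferation genes lay below 0, with a median of -0.32 and 1 past 0.5, Mcm5 (-0.51, and -0.14 without the members with 3 or more UMIs of Elane, Mpo and Prtn3). Among members under 2% S100a8 and S100a9, those with at least 2 such UMIs had more Fn1 (991 and 839 CPM) than those with neither gene (571 and 567 CPM), while Retnlg was at 71.6 and 51.5 CPM against 54.6 and 59.6 CPM. Over all members of the LPS library, those with at least 2 such UMIs also had more of the immature cell proteases. Prtn3 was at 129 CPM in them against 21.1 CPM in those with neither gene, and Elane at 41.5 against 6.77 CPM. Compared with nonclassical monocytes, cycling genes were among the highest ratios: Ube2c, a mitotic ubiquitin enzyme, was at 66.5 and 57.0 CPM in the members and 0.540 and 1.54 CPM in nonclassical monocytes, which in turn had more Treml4 (526 and 498 CPM against 45.3 and 53.0 CPM) and Pecam1 (454 and 585 CPM against 39.6 and 42.3 CPM).

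Beyond the lists, 2177 genes with at least 200 UMIs and not open to free RNA were ranked, and the whole interval of the ratio lay above 0.5 in 45 and below -0.5 in 57. Among the highest were the potassium channel gene Kcnn4 at 18.2 and 39.0 CPM (1.06) and the aminopeptidase gene Anpep at 8.02 and 17.7 CPM (1.05). At the other end stood Rnase2a, an eosinophil-type ribonuclease, at 48.9 and 10.3 CPM (-2.14 [-2.57, -1.93]), found in 113 and 50 members. Cish, a feedback inhibitor of cytokine signalling through Stat5, was at 74.4 and 26.4 CPM (-1.46 [-1.71, -1.29]), in 365 and 135 members.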

How the data were processed

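Droplet single-cell RNA libraries (10x Genomics 3' chemistry, version 3) were compared, 1 of pooled lungs of LPS mice and 1 of pooled lungs of LPS_MCZ mice. The authors deposited matrices of raw, unscaled counts of UMIs for every gene and barcode, made with Cell Ranger 7.0.0 per the file headers; bcl2fastq 2.20 and the mm10 build are per the submitters' processing notes. The treatment of intronic reads is not given in the sources used here.

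Members were the cells that met the limits stated in the opening. The members, the lists and the comparison classes were chosen with earlier results of these data known. UMIs were summed over members and scaled to 1000000. Genes had at least 50 UMIs over both libraries, a log2 ratio with a pseudocount of 1 CPM was called at 0.5 or more either way, and intervals at 95% were exact (Poisson, Clopper-Pearson, or conditional binomial for ratios). The interval and floor (3 counts) cover counting error alone, and with 1 library per group the UMI total of the members, 11345699 and 9094837, sets the precision. Shares of cells used members thinned to 2000 UMIs (seed 1). No doublet caller was run; the rule itself bars cells with lymphoid, endothelial or natural killer markers. Neutrophils had at least 2% of UMIs from S100a8 and S100a9 and at most 1 UMI of the threshold genes; nonclassical monocytes had at least 3 UMIs of Ace, Treml4, Adgre4 and Cd300e and, a limit added after the data were seen, under 2% S100a8 and S100a9; alveolar macrophages had at least 8 UMIs of Plet1, Krt79 and Lpl. Named genes were the 4 of each list farthest from 0 plus fixed key genes, the 12 highest and lowest of genes with at least 200 UMIs, the highest levels, and the highest ratios over other classes. Those named beyond this rule, such as Ccl7, Fn1 or Irf7, and the split at 2500 genes and by Arg1, were chosen after their values were seen. Some genes that the rule names are not reported here. Promoters were matched by symbol to RefSeq. The ratio script was tested on simulated data.

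Alternatives changed the cell limits, the thinning, the scaling, the background, the pseudocount and the gene minimum, and left out groups of members. Python 3.11.15, numpy 2.4.6, scipy 1.17.1, pandas 2.3.3 and matplotlib 3.10.9 were used.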

Additional observations from a re-analysis of the deposited data

Results flagged for a closer look

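Median ratios of gene lists were set beside those in alveolar macrophages, neutrophils and nonclassical monocytes of the same libraries. Of 75 pairs of a list and a class with at least 5 tested genes on both sides, 26 had opposite signs, and in 3 of these both medians were at least 0.2 from 0. The early response list had a median log2 ratio of -0.27 in the members and 0.39 in alveolar macrophages, over 20 genes in both. The proliferation list had -0.32 in the members (17 genes) and 0.21 in alveolar macrophages (18 genes). The cholesterol synthesis list had 0.54 in the members (23 genes) and -0.23 in nonclassical monocytes (15 genes, none past 0.5 either way). With 1 library per group these differences were not tested.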

How the results depend on the processing

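No paired analysis was possible because there was 1 library per group. For 100 genes past 0.5 either way, those of the naming rule and 17 more that the text calls, each alternative that gave a value (9 to 16 a gene) was compared. In 93 every such value kept its direction. Ifit1 and Ifit3 were at 0, Ifit2 at 2.21 and H2-Eb1 at -0.35 with the background subtracted, where both levels can fall to 0; Retnla was at 0.52 without the tenth of members with the most UMIs, Cd163 at 0.47 after thinning each member to 2000 UMIs, and Prtn3 at 0.14 without the members with 3 or more Elane, Mpo and Prtn3 UMIs, a group defined by that gene. In 39 of the 100 at least 1 alternative lay inside 0.5, so that call ended there, and in 61 none did; the cause was not tested. Medians ranged from 0.48 to 0.63 for cholesterol synthesis, -0.46 to -0.33 for chemokines, -0.52 to -0.32 for cytokines and -0.78 to -0.17 for proliferation, and ratios from -1.40 to -1.22 for Ccl4 and 1.77 to 2.25 for Arg1. Wide ranges were those of Il12b (-3.57 to -1.52), Lss (0.58 to 2.57), Camp (-2.53 to -0.21) and Ifi213 (-2.54 to -0.95).

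The share of members in the LPS and LPS_MCZ libraries was 9.52% and 9.44% with at least 5000 UMIs per cell, 5.51% and 5.14% with the threshold genes at 0.2% or more, 6.27% and 6.25% without the tenth of members highest in neutrophil genes, and 5.58% and 5.68% without those at 2% or more S100a8 and S100a9. Genes higher and lower numbered 2653 and 1949 with the background subtracted, 215 and 243 with a pseudocount of 5 CPM, 199 and 250 with at least 200 UMIs per gene, and 62 and 77 at a fold of 1 log2. The interferon median was 0 with the background subtracted. After thinning, 396 and 340 genes passed, of which 99 and 131 were among the 512 and 465, so which genes passed changed with the thinning. Without barcodes found in both libraries, 509 and 523 genes passed.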
